A study of Mus musculus with 8 samples.

Results

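The genes described here are the interferon-inducible members of the PARP family and their partners: Parp9, Parp10, Parp11, Parp12, Parp14, Dtx3l and Zc3hav1. They were taken from the deposited table by gene symbol, 7 of its 15521 genes, and all 7 passed the filter on low counts that left 11621 genes for testing. The table comes from bulk RNA-seq of mouse alveolar macrophages, which patrol the lung's airspaces. The cells were washed out of the lung, selected over 2 h by their sticking to plastic and kept in GM-CSF (10 ng/ml), on which they depend in the lung. The 8 libraries form 4 groups of 2. Cells of the group Poly(I:C) with MSDC received MSDC at 10 µM for 2 h and then Poly(I:C), a synthetic double-stranded RNA that mimics viral RNA, at 5 µg/mL for 24 h (overnight in the series description). The group Poly(I:C) with vehicle received the solvent DMSO and the same Poly(I:C), the group MSDC received MSDC alone, and the group vehicle received DMSO alone. The labels give no mouse strain, sex or age, and the compound is named only MSDC, the prefix of code-named compounds that act on the mitochondrial pyruvate carrier. The labels do not tell if replicates stem from different animals or cultures, so the spread behind the p-values may be technical.

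PARP enzymes transfer ADP-ribose from the metabolite NAD onto proteins and nucleic acids. The members induced by interferon mostly attach single ADP-ribose units, and several take part in antiviral defence. DTX3L, a ubiquitin ligase of the Deltex family, forms a complex with PARP9, a protein with macrodomains that bind ADP-ribose. PARP14, known in mouse as a coactivator of STAT6, also carries macrodomains. PARP10 and PARP11 are mono-ADP-ribosyltransferases. PARP12 is a mono-ADP-ribosyltransferase with CCCH zinc fingers, and ZC3HAV1, also called ZAP or PARP13, shares these fingers, lacks catalytic activity and marks CpG-rich viral RNA for decay. Type I interferon acts through the receptor chains IFNAR1 and IFNAR2, and transcription factors that include STAT2 and IRF9 then bind a promoter motif called the interferon-stimulated response element (ISRE).

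In the GENCODE M21 annotation of GRCm38, the build named in the submitters' processing notes, 3 of the genes lie together on chromosome 16. Dtx3l (35926511 to 35939151, minus strand) and Parp9 (35938470 to 35972605, plus strand) are head to head and overlap by 682 bases. The gap between Parp14 (35832874 to 35871544, minus strand) and Dtx3l is 55 kb. Chromosome 6 holds Zc3hav1 (38305286 to 38354603), Parp12 (39086410 to 39118349) and Parp11 (127446840 to 127494261), and chromosome 15 holds Parp10 (76231174 to 76243441). Parp9 and Dtx3l share 458 exonic bases, 9.4% of those of Parp9 and 8% of those of Dtx3l. Reads from these bases cannot be told apart if the counting ignored strand, which the sources used here do not say. Parp10 shares 205 exonic bases (4.8%) with Plec on the same strand, and Plec held 5363 to 7104 counts per library.

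RefSeq promoter windows on GRCm38.p6, from 250 bases before a start to 50 after it, were at hand for 4 of the 7 genes (Dtx3l, Parp11, Parp12 and Zc3hav1), with 5 windows in all. They were searched on both strands for the ISRE core, GAAA followed by any 2 bases and again GAAA, and for TTCNNNGAA, a motif bound by STAT factors, which reads the same on both strands. The upstream of the 2 Parp11 windows held the only matches. An ISRE core on the minus strand covered positions -44 to -35 before the start and overlapped a TTCNNNGAA at positions -37 to -29. Of all 32851 windows in the table, 3.44% held the ISRE core and 8.3% held TTCNNNGAA. The 250 bases before the start are shown for the Parp11 window with the matches and for Parp12, which had no match and the highest stimulated level of the set, with matched bases in capitals. These matches describe letters in a window, and no binding was measured. The Parp12 window opens with GAAA, and an ISRE core that began before its first base could not be found.
Parp11, chr6:127446590-127446839, plus strand: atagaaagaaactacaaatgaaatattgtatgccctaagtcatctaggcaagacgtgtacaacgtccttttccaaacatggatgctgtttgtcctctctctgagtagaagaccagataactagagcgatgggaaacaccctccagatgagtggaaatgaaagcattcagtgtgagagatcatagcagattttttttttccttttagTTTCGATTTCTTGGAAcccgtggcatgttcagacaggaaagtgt
Parp12, chr6:39118350-39118599, minus strand: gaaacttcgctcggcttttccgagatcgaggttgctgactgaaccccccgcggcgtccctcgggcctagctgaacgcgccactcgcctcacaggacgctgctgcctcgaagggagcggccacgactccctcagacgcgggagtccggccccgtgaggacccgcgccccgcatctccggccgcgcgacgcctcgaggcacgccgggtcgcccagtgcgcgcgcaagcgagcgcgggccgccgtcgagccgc

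Each library held 28762425 to 29493223 estimated counts, and the 7 genes held between 284 and 7062 counts each in a library. All 10 alveolar macrophage markers and all 5 pan-macrophage markers were above 1 CPM (counts scaled to library size). Markers of T cells, B cells and NK cells summed to at most 1.04 CPM in any library. The 3 neutrophil markers in the table (S100a8, Mmp8 and Cxcr2) summed to 12.6 to 22.2 CPM in Poly(I:C) with MSDC, 42.2 to 44.5 in Poly(I:C) with vehicle, 10.8 to 14.7 in MSDC and 35.4 to 38.3 in vehicle. This sum was lower with MSDC in both states, and the genes did not move alike: Mmp8 was called lower in both, S100a8 was called higher in unstimulated cells and Cxcr2 was not called. The monocyte marker Ccr2 was likewise lower with MSDC, at 0.803 to 1.7, 4.19 to 4.54, 0.676 to 1.1 and 3.73 to 4.04 CPM for the summed list in the same order. The alveolar macrophage markers summed to 9200 to 9490, 9980 to 10200, 9270 to 9290 and 10900 to 11200 CPM, lower with MSDC, although 5 of the 10 were called higher and 4 lower with MSDC in each state. The pan-macrophage markers summed to 20100 to 21100, 23300 to 23700, 19900 and 23000 to 23600 CPM, with 1 of the 5 called higher and 2 lower with MSDC in each state. Epithelial markers, carried by Epcam and Cdh1, summed to 46.6 to 47.2, 50.7 to 51.8, 55.6 to 62.9 and 72.3 to 76.0 CPM, lower both with MSDC and with Poly(I:C). Of the 4 tested, 0 were called with MSDC in stimulated cells. With MSDC in unstimulated cells, and with Poly(I:C) in MSDC and in vehicle, 1 was called lower each time. Fibroblast and endothelial markers, carried by Cdh5, summed to 1.47 to 1.88, 3.64 to 3.91, 1.32 to 1.79 and 2.28 to 3.19 CPM. Plasmacytoid dendritic cell markers, carried by Tcf4 and by Bst2, which interferon induces in many cells, summed to 254 to 289, 370, 29.7 to 34.1 and 38.1 to 44.0 CPM. The part of these lists in the results below was not tested. Within the vehicle group, replicate 1 was above replicate 2 for all 7 genes, by 1.14-fold (Parp10) to 1.64-fold (Parp14) in TPM, and results that rest on these libraries are given without them below.

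The levels are given first in TPM, the deposited unit per length and depth, in which genes can be compared. Parp9 stood at 72.4 and 74.1 TPM in Poly(I:C) with MSDC, 73.5 and 76.6 in Poly(I:C) with vehicle, 17.3 and 18.7 in MSDC, and 24.14 and 19.96 in vehicle. Its partner Dtx3l stood at 39.3 and 40.5 TPM, 42.1 and 46.0, 8.69 and 9.29, and 13.2 and 10.4 in the same order of groups. For both genes the 4 stimulated libraries lay far above the 4 unstimulated ones, and the MSDC libraries lay below both vehicle libraries. The ratio of Parp9 to Dtx3l lay between 1.67 and 2.01 in every library. Its mean was 1.83 ± 0.00707 in Poly(I:C) with MSDC and 1.71 ± 0.0566 in Poly(I:C) with vehicle. Without Poly(I:C) it was 2.0 ± 0.00707 in MSDC and 1.88 ± 0.0636 in vehicle.

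Parp14 stood at 59.9 and 62.3 TPM in Poly(I:C) with MSDC, 61.45 and 64.05 in Poly(I:C) with vehicle, 9.92 and 10.51 in MSDC, and 17.6 and 10.8 in vehicle. The stimulated groups overlapped, and vehicle replicate 1 stood apart from the other 3 unstimulated libraries. Parp10 stood at 32.1 and 35.6 TPM in Poly(I:C) with MSDC, 28.6 and 31.3 in Poly(I:C) with vehicle, 8.6 and 10.3 in MSDC, and 10.8 and 9.47 in vehicle. It was the 1 gene of the set whose Poly(I:C) with MSDC libraries were both above those of Poly(I:C) with vehicle, and its unstimulated groups overlapped.

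Parp11 stood at 10.66 and 11.98 TPM in Poly(I:C) with MSDC, 14.7 and 16.9 in Poly(I:C) with vehicle, 5.17 and 5.33 in MSDC, and 5.88 and 4.62 in vehicle. Its unstimulated groups overlapped, and its stimulated groups did not, with MSDC lower. Parp12 stood at 115 and 121 TPM in Poly(I:C) with MSDC, 129 and 145 in Poly(I:C) with vehicle, 20.5 and 20.3 in MSDC, and 33.65 and 28.3 in vehicle. The MSDC libraries of Parp12 lay below the vehicle libraries in both states. Zc3hav1 stood at 82.65 and 82.2 TPM in Poly(I:C) with MSDC, 90.6 and 87.1 in Poly(I:C) with vehicle, 50.9 and 48.8 in MSDC, and 63.9 and 53.5 in vehicle. It had the highest unstimulated level of the set and the smallest ratio between the highest and the lowest group mean.

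**Figure D1:**
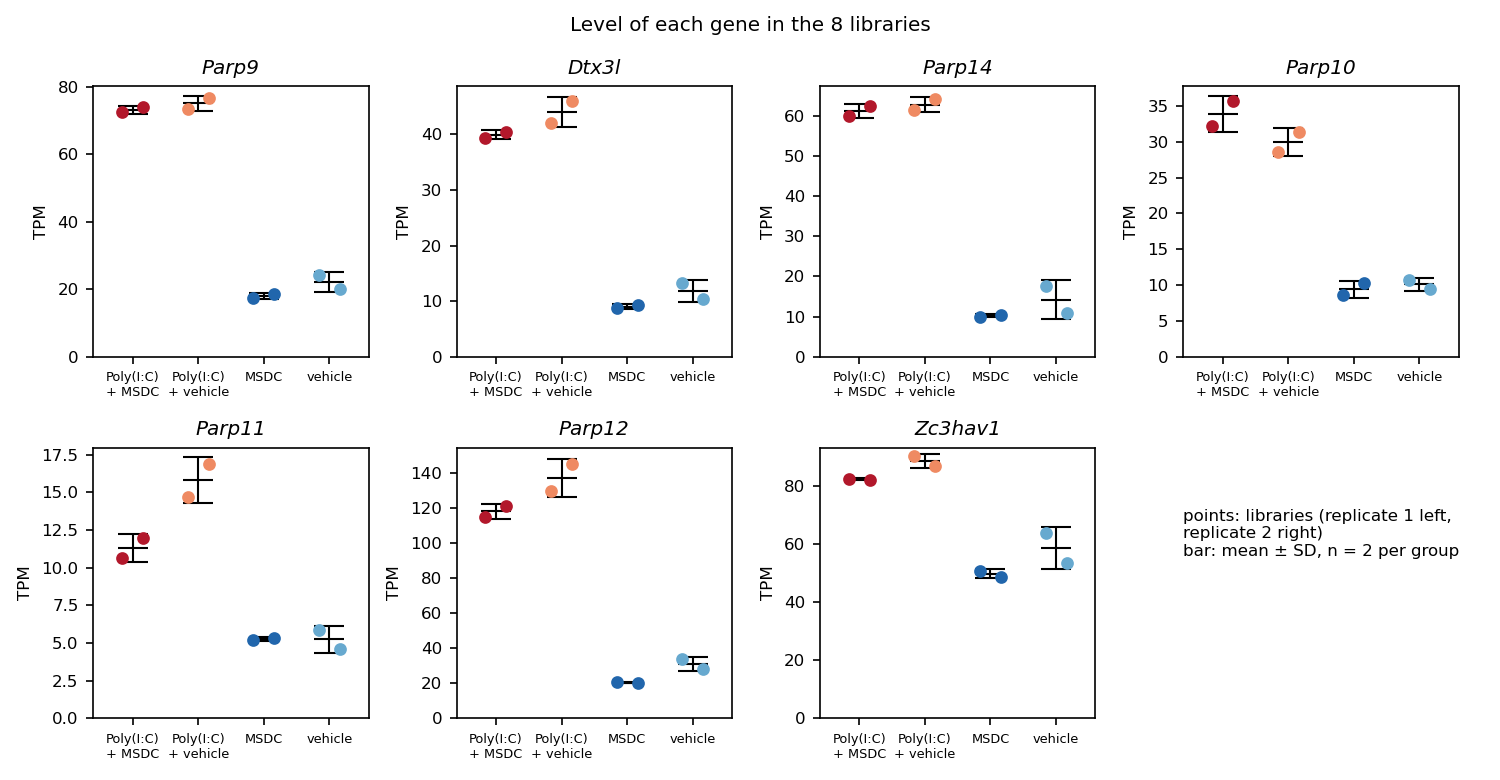
TPM of each of the 7 genes (y axis, from 0, scaled per gene) in the 4 groups (x axis). Points are libraries and bars are mean ± SD (n = 2). Every stimulated library is above every unstimulated one for each gene, and Parp11 is the gene with the widest gap between the stimulated groups relative to its level, at 10.66 and 11.98 TPM with MSDC against 14.7 and 16.9 TPM with vehicle.

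The order of the mean levels differed between states. In both stimulated groups Parp12 was highest (118 ± 4.24 TPM with MSDC and 137 ± 10.8 TPM with vehicle, SD, n = 2 each), followed by Zc3hav1, Parp9, Parp14, Dtx3l, Parp10 and Parp11, and the ranges of neighbours did not overlap. Without Poly(I:C), Zc3hav1 led (49.9 ± 1.52 TPM in MSDC and 58.7 ± 7.34 TPM in vehicle), followed by Parp12 and Parp9. The ranges of Parp14 and of its next neighbour overlapped there, as did those of Dtx3l and Parp10, and Parp11 was lowest in every group. Zc3hav1 made up 19.6% ± 0.636 of the summed TPM of the 7 genes in Poly(I:C) with MSDC, 19.6% ± 1.34 in Poly(I:C) with vehicle, 40.8% ± 1.7 in MSDC and 38.5% ± 0.919 in vehicle. The sum itself was 420 ± 11 TPM, 454 ± 18.5 TPM, 122 ± 1.41 TPM and 153 ± 22.8 TPM in the same order.

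The first question was how vehicle-treated cells responded to Poly(I:C). All 7 genes rose, against 7.52% of all tested genes called higher and 4.1% called lower. A gene is said to rise or fall at a Benjamini-Hochberg adjusted p under 0.05 over all tested genes in edgeR's quasi-likelihood test, two-sided, and changes are fitted log2 fold changes with their standard error (SE). Parp12 and Parp14 rose by 2.21 each (SE 0.08 and 0.14), which is 4.62-fold, with adjusted p = 1.64e-11 for Parp12 and 8.69e-09 for Parp14. The partners Dtx3l and Parp9 rose by 1.96 (SE 0.09) and 1.82 (SE 0.08). Parp10 rose by 1.63 (SE 0.10) and Parp11 by 1.60 (SE 0.12). Zc3hav1 rose least, by 0.62 (SE 0.07, adjusted p = 8.72e-06), or 1.54-fold. The median of the 7 was 1.82, against 0 over all tested genes, and 98.76% of tested genes had a smaller log2 fold change than Parp12 and 94.05% than Zc3hav1. In bulk RNA, fewer cells of a type and less RNA per cell cannot be told apart. The genes were described as interferon-inducible beforehand, so their common direction is no independent evidence of it.

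Without vehicle replicate 1 or 2, Parp14 had values of 2.58 and 1.91, and all 7 genes kept the call in every fit with 1 library left out. With scaling by library totals alone, the calls over all genes were 729 higher and 867 lower, in place of 874 and 477.

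The same response was then measured in MSDC-treated cells. Again all 7 genes rose, against 4.82% of all tested genes called higher and 1.5% called lower. Parp14 rose by 2.58 (SE 0.14, adjusted p = 1.77e-09) and Parp12 by 2.53 (SE 0.08, adjusted p = 4.87e-12), which is 5.96-fold and 5.79-fold. Dtx3l rose by 2.15 (SE 0.09), Parp9 by 2.00 (SE 0.08) and Parp10 by 1.84 (SE 0.10). Parp11 rose by 1.07 (SE 0.12, adjusted p = 1.2e-05) and Zc3hav1 by 0.68 (SE 0.07, adjusted p = 4.18e-06). Here the change of Parp11, 2.1-fold, stood below that of Parp10, 3.58-fold, whereas in vehicle the changes were 3.04-fold and 3.09-fold. The median of the 7 was 2.0, against 0.00159 over all tested genes. This comparison shares no library with the first.

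**Figure D2:**
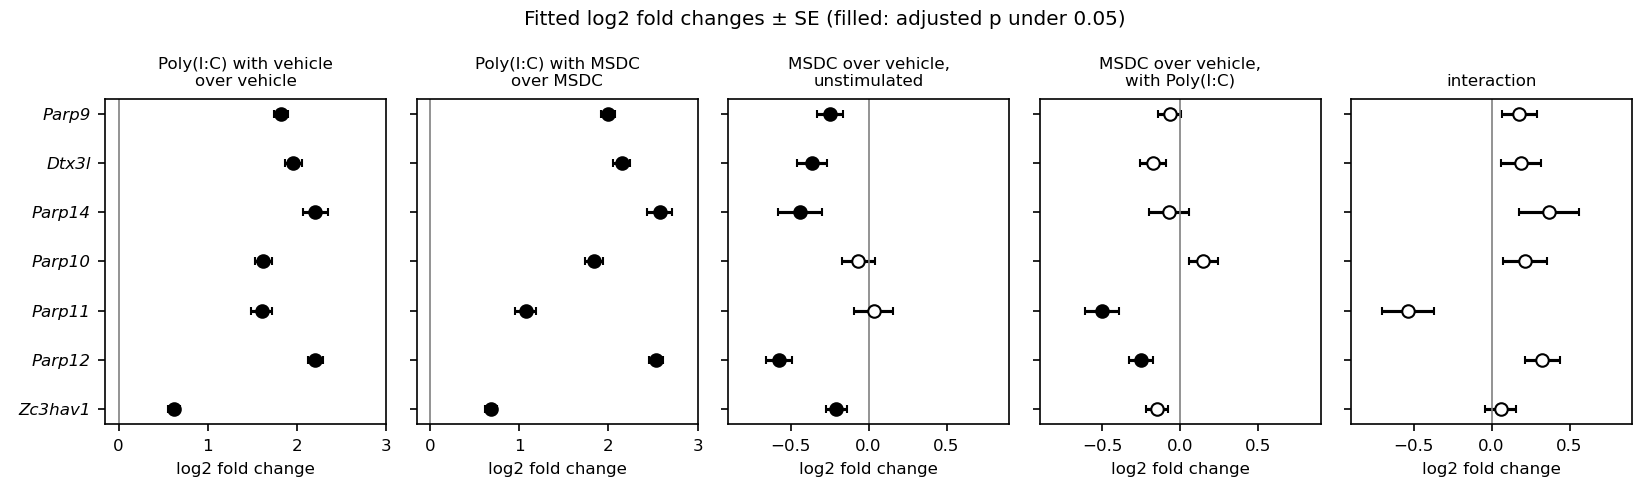
Fitted log2 fold changes ± SE (x axis) of the 7 genes (rows) in the 4 comparisons and the interaction. Filled points have an adjusted p under 0.05. All points are filled and above 0 for Poly(I:C), 5 are filled and below 0 for MSDC without Poly(I:C), 2 for MSDC with Poly(I:C), and none for the interaction, where Parp11 is the 1 gene below 0.

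In unstimulated cells, MSDC was set against vehicle. With MSDC 5 of the 7 genes fell, against 12.4% of all tested genes called lower and 11.1% called higher. Parp12 fell by 0.58 on the log2 scale (SE 0.08, adjusted p = 6.76e-05), at 20.4 ± 0.141 TPM in MSDC and 31.0 ± 3.79 TPM in vehicle. Parp14 fell by 0.44 (SE 0.14, adjusted p = 0.0331), Dtx3l by 0.36 (SE 0.10, adjusted p = 0.0115), Parp9 by 0.25 (SE 0.08, adjusted p = 0.0417) and Zc3hav1 by 0.21 (SE 0.07, adjusted p = 0.0422). Parp10 (-0.07, SE 0.11, adjusted p = 0.737) and Parp11 (0.03, SE 0.13, adjusted p = 0.903) were not called, and the sign of both changed with a library left out. The median of the 7 was -0.246, against -0.00152 over all tested genes.

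These falls were small, and all but that of Parp12 depended on single libraries. DESeq2 called 4 of the 5, with Parp14 at -0.44 (SE 0.23, adjusted p = 0.196). Without vehicle replicate 1 only Parp12 was called (-0.47, adjusted p between 3.68e-11 and 0.00179 over all alternatives), while Parp14 had a value of -0.07 (adjusted p = 0.61), Dtx3l -0.20, Parp9 -0.13 and Zc3hav1 -0.11. The number called was 5 without vehicle replicate 2, 1 without MSDC replicate 1, 2 without MSDC replicate 2, 3 without either library of Poly(I:C) with vehicle and 2 without either library of Poly(I:C) with MSDC. Leaving out a stimulated library left the value of Parp14 at -0.44. Those libraries enter this contrast only through the shared estimate of the spread and the scaling between libraries.

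**Figure D3:**
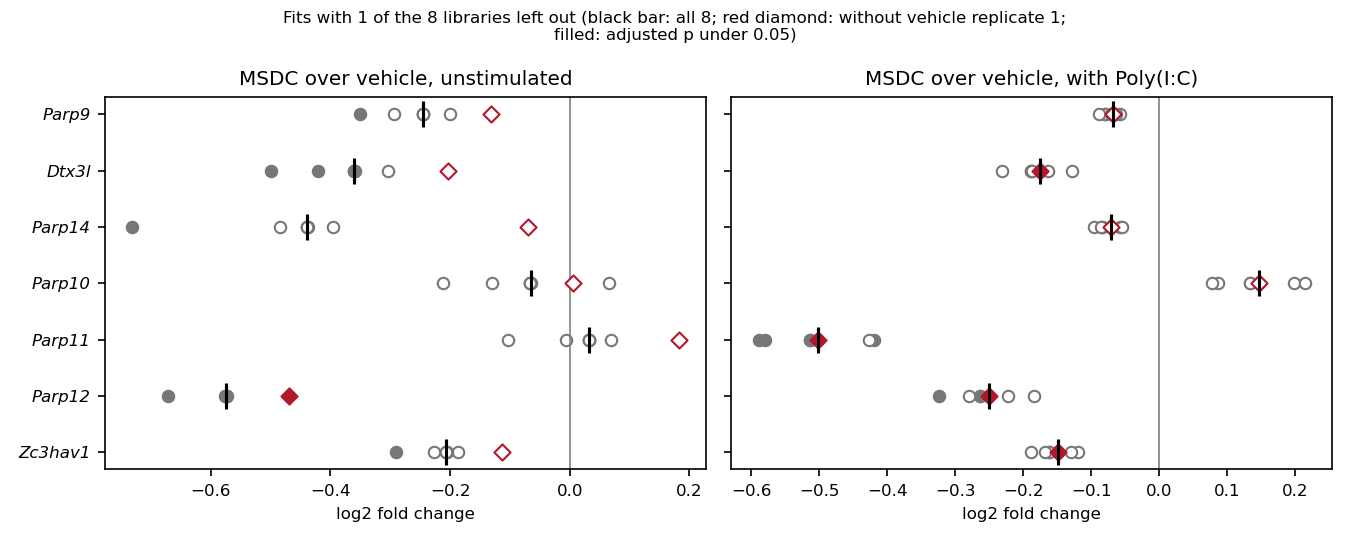
Log2 fold changes (x axis) of MSDC over vehicle for the 7 genes (rows), without Poly(I:C) on the left and with it on the right. Each circle is a fit with 1 of the 8 libraries left out, a red diamond the fit without vehicle replicate 1 and a black bar the fit with all 8, and filled symbols have an adjusted p under 0.05. On the left, the diamond of Parp14 is at -0.07 against the bar at -0.44, and Parp12 stays at or below -0.469.

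Among cells given Poly(I:C), MSDC was set against vehicle in the same way. Parp11 and Parp12 fell, 2 of the 7 genes, against 13.6% of all tested genes called lower and 12.5% called higher. Parp11 fell by 0.50 (SE 0.11, adjusted p = 0.00278), at 11.3 ± 0.933 TPM in Poly(I:C) with MSDC and 15.8 ± 1.53 TPM in Poly(I:C) with vehicle, or 0.706-fold. Parp12 fell by 0.25 (SE 0.07, adjusted p = 0.0215), or 0.841-fold. Zc3hav1 (-0.15, SE 0.07, adjusted p = 0.13) and Dtx3l (-0.17, SE 0.08, adjusted p = 0.152) had both libraries with MSDC below both with vehicle and were not called. Parp9 (-0.07, SE 0.07), Parp14 (-0.07, SE 0.13) and Parp10 (0.15, SE 0.09, adjusted p = 0.28) were not called either. The median of the 7 was -0.149, against -0.00241 over all tested genes.

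The call of Parp11 was lost in 1 fit with a library left out, that without replicate 1 of Poly(I:C) with MSDC (-0.43, adjusted p = 0.0515), where edgeR's test called 0 of the 7 and 2 had an unadjusted p under 0.05. Parp12 also lost its call there, as well as in the fits that left out replicate 2 of that group or of Poly(I:C) with vehicle, and 1 of the 7 was called in each of the last 2 fits. Without vehicle replicate 1 or 2, whose spread enters the shared estimate, 4 were called, with Dtx3l and Zc3hav1 added. Parp11 made up 2.69% ± 0.148 of the summed TPM of the 7 genes in Poly(I:C) with MSDC, 3.48% ± 0.198 in Poly(I:C) with vehicle, 4.3% ± 0.0424 in MSDC and 3.42% ± 0.0778 in vehicle. In unstimulated cells its own mean was 5.25 TPM in both groups, so that the difference in share there came from the sum of the 7 alone.

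The interaction asked whether the response to Poly(I:C) differed between MSDC and vehicle, and is positive where it was larger in MSDC. edgeR's test called 0 of the 7 genes, as did DESeq2 and limma, and 0.224% of all tested genes were called in either direction. At an unadjusted p under 0.05 there were 2, beside 756 of the 11621 tested genes. Parp11 stood at -0.53 (SE 0.17, unadjusted p = 0.00609, adjusted p = 0.488) and Parp12 at 0.33 (SE 0.11, unadjusted p = 0.0107, adjusted p = 0.562). Parp14 (0.37, SE 0.19), Parp10 (0.21, SE 0.14), Dtx3l (0.19, SE 0.13), Parp9 (0.18, SE 0.11) and Zc3hav1 (0.06, SE 0.10) had positive values that were not called. Parp14 rested on the vehicle libraries, at 0.65 (adjusted p = 0.00025) without vehicle replicate 2 and -0.00047 without vehicle replicate 1. Parp11 kept a negative value in all 15 alternatives, between -0.683 and -0.411, with adjusted p between 0.0946 and 1.

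Of the other 10 genes of the PARP family, 1 was called with Poly(I:C), beside 4.82% of all tested genes called higher in MSDC and 7.52% in vehicle. Parp3, a nuclear enzyme of DNA repair, rose in vehicle (0.52, SE 0.08, adjusted p = 0.000172). In MSDC edgeR called 0 of the 10, with Parp3 at 0.25 (adjusted p = 0.0679) and Parp16 at -0.62 (adjusted p = 0.118) the 2 at an unadjusted p under 0.05. The medians of the 10 were 0.0385 in MSDC and 0.0366 in vehicle. Parp1, the main nuclear PARP of DNA damage, was not called in any comparison and stood at 50.4 ± 1.87 TPM in Poly(I:C) with MSDC, 43.9 ± 0.905 in Poly(I:C) with vehicle, 47.7 ± 2.28 in MSDC and 46.2 ± 2.4 in vehicle. With MSDC 2 of the 10 rose in each state, beside 12.5% of all tested genes in stimulated and 11.1% in unstimulated cells. Tiparp, an aryl hydrocarbon receptor target, rose by 0.58 (SE 0.07) with and by 0.53 (SE 0.07) without Poly(I:C), and Parp8 rose by 0.61 (SE 0.09) with and by 0.83 (SE 0.09) without it. Parp16, an enzyme of the endoplasmic reticulum, fell with MSDC in stimulated cells (-0.69, SE 0.21, adjusted p = 0.0241), a call lost without replicate 1 of either stimulated group. In unstimulated cells it was not called (-0.27, SE 0.20, adjusted p = 0.389). Its TPM differed more there than the fitted counts, at 2.89 ± 0.0283 in MSDC and 4.515 ± 0.0354 in vehicle.

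**Figure D4:**
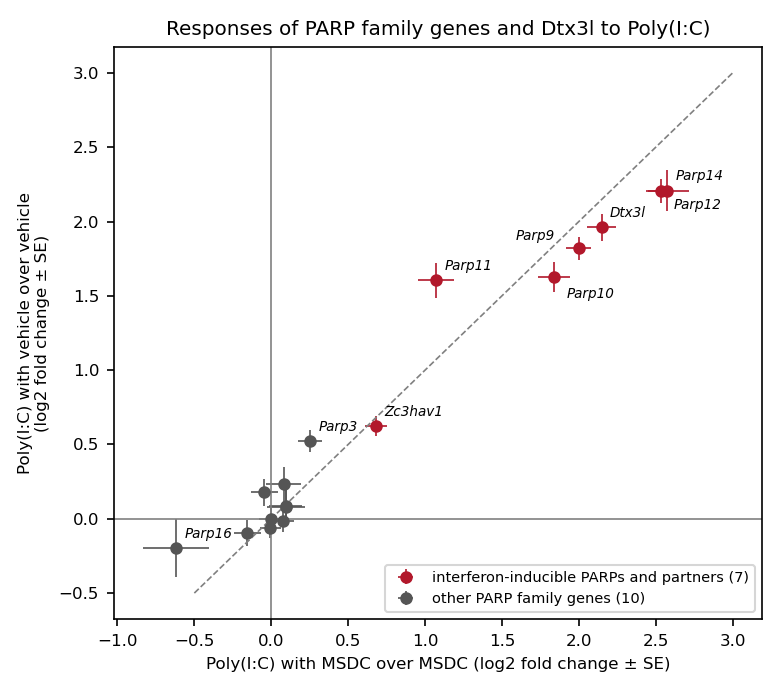
Log2 fold changes ± SE to Poly(I:C) of the 7 genes (red) and of the other 10 PARP family genes (grey), in MSDC (x axis) and in vehicle (y axis), comparisons that share no library. The dashed line marks equal change. The red points lie at 0.62 to 2.21 on the y axis, Parp11 is the red point farthest above the line, and Parp3 at 0.52 is the highest grey point.

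For this list and the next, the shares of all tested genes called lower with Poly(I:C) were 1.5% in MSDC and 4.1% in vehicle. With MSDC, 12.5% were called higher and 13.6% lower in stimulated cells, and 11.1% and 12.4% in unstimulated cells. Among the other Deltex genes, 3 of 4 were tested and 1 was called. Dtx4 fell with Poly(I:C) in MSDC (-0.42, SE 0.07) and in vehicle (-0.53, SE 0.07), and it rose with MSDC in stimulated (0.56, SE 0.07) and unstimulated cells (0.45, SE 0.07). Its calls held with any library left out, and in each of the responses to Poly(I:C) its sign was opposite to that of Dtx3l. Of 6 tested enzymes that remove ADP-ribose, 1 was called with Poly(I:C) in vehicle (Adprhl2, also named Adprs, -0.32, SE 0.10, adjusted p = 0.0488), and only 1 of the 8 fits with a library left out kept that call. With MSDC, Adprh fell in stimulated cells (-0.28, SE 0.07, called in 6 of 8 such fits) and unstimulated cells (-0.22, SE 0.07, called in 1 of 8), and Macrod2 fell in stimulated cells (-0.70, SE 0.23, called in 5 of 8).

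Of 14 tested genes of NAD supply and use, 2 rose with Poly(I:C) in vehicle, beside 7.52% of all tested genes. Nampt, the rate-limiting enzyme of NAD salvage, rose by 0.41 (SE 0.06) in MSDC and by 0.43 (SE 0.06) in vehicle, and Bst1, which consumes NAD at the cell surface, rose by 0.32 (SE 0.06) in vehicle, a call lost when replicate 1 of the stimulated group was left out (adjusted p = 0.0598). With MSDC, Nampt fell by 0.21 (SE 0.06) in stimulated cells, a call kept in 6 of the 8 fits with a library left out, and by 0.18 (SE 0.06) in unstimulated cells, kept in 4 of 8. Nadk, which makes NADP from NAD, rose with MSDC by 0.43 (SE 0.06) in stimulated and 0.49 (SE 0.06) in unstimulated cells and kept its call in all 8 fits of each. Kynu and Nmnat3 rose with MSDC in both states as well, though each lost some of those calls.

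Of 11 genes of type I interferon signalling, 7 rose with Poly(I:C) in MSDC and 8 in vehicle, with medians of 1.59 and 1.28. Of all tested genes, 4.82% and 7.52% rose there. The eighth gene in vehicle, the receptor gene Ifnar2 (0.23, SE 0.07, adjusted p = 0.0454), was called in only 1 of the 8 fits with a library left out. Stat2 rose by 2.52 (SE 0.09) in MSDC and 2.3 (SE 0.09) in vehicle. With MSDC 5 of the 11 fell in stimulated cells and 6 in unstimulated cells, beside 13.6% and 12.4% of all tested genes. Socs1, a feedback inhibitor of the pathway, fell by 0.99 (SE 0.13) in stimulated and 1.39 (SE 0.17) in unstimulated cells, and Irf7, a factor that drives interferon genes, fell by 1.12 (SE 0.20) and 1.87 (SE 0.36). In unstimulated cells Irf9 fell by 1.21 (SE 0.14), Stat2 by 0.51 (SE 0.09) and the receptor gene Ifnar1 by 0.39 (SE 0.07). All these calls held with any library left out. Irf7 stood at 3.175 ± 1.86 TPM in MSDC and 12.17 ± 7.49 TPM in vehicle, a wide spread beside its means. Irf9 stood at 78.8 ± 2.78 TPM in Poly(I:C) with MSDC, 83.1 ± 3.31 in Poly(I:C) with vehicle, 10.6 ± 1.3 in MSDC and 24.7 ± 6.35 in vehicle. Its interaction was called (1.10, SE 0.18, adjusted p = 0.0134), but in only 4 of the 8 fits with a library left out, with adjusted p up to 0.134, and was lost without replicate 1 of MSDC, replicate 1 of Poly(I:C) with vehicle or either replicate of Poly(I:C) with MSDC.

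Of 10 genes linked to ZAP, 3 rose with Poly(I:C) in MSDC and 4 in vehicle, beside 4.82% and 7.52% of all tested genes. The ubiquitin ligase gene Trim25, a ZAP cofactor, rose by 0.85 (SE 0.07) in MSDC and 0.82 (SE 0.07) in vehicle, beside 0.68 and 0.62 for Zc3hav1. The decapping enzyme gene Dcp2 rose by 0.70 (SE 0.09) in MSDC and 0.67 (SE 0.09) in vehicle. Trim25 also rose with MSDC, by 0.30 (SE 0.07) in stimulated and 0.28 (SE 0.07) in unstimulated cells, each called in 7 of the 8 fits with a library left out, where Zc3hav1 had negative values.

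Across the 8 libraries the 7 genes varied together. Pearson's r of log2 CPM was highest for Parp9 and Dtx3l (0.9987) and lowest for Parp10 and Zc3hav1 (0.9449). These coefficients describe 8 points in 4 groups split mainly by Poly(I:C), so that any gene induced by it has a high r. Parp9 and Dtx3l also share exonic bases, as given above, and the part of shared reads in their r was not tested. Of the genes at or above 5 CPM in a group, the 5 most like the mean of the set were Gbp6 (r = 0.9999), Trex1, Znfx1, Igtp and Trim34a (0.9982). Parp12 was most like Stat2 (0.9996), Parp14 most like Helz2 (0.9987), Dtx3l and Parp9 both most like Trex1 (0.9995 and 0.9996), Parp10 most like Rsad2 (0.9958) and Zc3hav1 most like Rnf114 (0.9953). Parp11 was most like Ifi209 (0.997), followed by Eif4a2 and Slfn4. Ifi209 had 8.84 TPM in Poly(I:C) with MSDC, 42.0 in Poly(I:C) with vehicle, 0.175 in MSDC and 0.2 in vehicle, and Slfn4 had 12.9, 24.1, 2.56 and 2.84 TPM in the same order. With MSDC in stimulated cells the fitted changes were -2.28 for Ifi209, -0.0776 for Eif4a2 and -0.998 for Slfn4, beside -0.50 for Parp11. Likeness was computed on these same libraries, so a shared direction is partly built in.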

How the data were processed

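RNA of 8 libraries was measured by RNA-seq. The deposited table gives, per the file headers, a read count, a TPM and an FPKM for each gene and library. The deposited estimated counts are not scaled to depth and 5.95 to 7.19% per library were not whole; they were rounded. The TPM deposited by the authors were used for levels, and the FPKM deposited beside them were not used. Per the submitters' processing notes, reads were handled with Cuffdiff, Bowtie2 2.3.4 and TopHat2 2.1.1 on GRCm38 (mm10); no source used here says which tool made which column.

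Genes were filtered with filterByExpr (11621 of 15521 kept), scaled by TMM and fitted in 1 quasi-likelihood model of 4 groups (edgeR 4.0.16, R 4.3.3, 4 residual degrees of freedom). SE was derived from the change and its F statistic. P-values were adjusted by Benjamini-Hochberg over all tested genes. The procedure was also run on counts simulated with the fitted spread, which cannot tell if the spread between replicates is technical. Replicates differed by more than sampling noise over all tested genes, most in vehicle. Chi-square per degree of freedom was 6.36 in Poly(I:C) with MSDC, 6.32 in Poly(I:C) with vehicle, 4.29 in MSDC and 14.8 in vehicle. The model fitted a shared spread per gene to all 4 groups. The members, lists and tests were chosen with earlier results of these data known; named are the members, up to 4 genes per list with the smallest p in a comparison and the genes of highest likeness. Samples with the same replicate number showed no shared deviation (correlations of replicate differences -0.0262 to 0.034), which cannot exclude that they were paired. Alternatives used DESeq2 1.42.0, limma 3.58.1 on log2(TPM + 0.1 or 1), other scalings, no filter, the comparison's groups alone, a replicate block and each library left out.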

Additional observations from a re-analysis of the deposited data

How the results depend on the processing

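All 7 rises with Poly(I:C), in vehicle and in MSDC, kept their direction and call in the 16 alternatives run for each. The number of genes lower with MSDC alone, 5, was 4 with DESeq2 (Parp14 at adjusted p = 0.196), 3 with limma on log2(TPM + 0.1), 2 with limma on log2(TPM + 1), 2 with the groups of the comparison alone and 1 to 5 with a library left out. The number lower with MSDC in stimulated cells, 2, was 1 with limma at either pseudocount, 3 with the groups of the comparison alone (Dtx3l added) and 0 to 4 with a library left out. The number called in the interaction, 0, was 0 to 1 with a library left out (Parp14). Values changed sign for genes not called: Parp11 with MSDC alone was -0.00094 with scaling by library totals and -0.103 to 0.182 with a library left out. Parp10 was -0.211 to 0.0658 there, and in the interaction Zc3hav1 was -0.0352 to 0.129 and Parp14 -0.00047 to 0.648. With the replicate block, where numbers are shared by label only, 4 genes in place of 5 were lower with MSDC alone (Parp9 at adjusted p = 0.0535), and the other 4 counts were as in the fit without it. Over all tested genes, the 1351 calls for Poly(I:C) in vehicle ranged from 940 with the groups of the comparison alone to 1690 without the filter on low counts. With a library left out, that number moved down in some fits and up in others. The 734 calls for Poly(I:C) in MSDC ranged from 414 to 1182 and the 26 of the interaction from 5 to 116, with 14 higher and 4 lower when scaled by library totals in place of 14 and 12. The cause of these changes was not tested.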
